A study of Mus musculus with 9 samples.

Results

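The transcripts of the mouse mitochondrial genome were 37 of the 55401 genes in the deposited tables, chosen as every gene whose name starts with mt-. They are 13 messenger RNAs, 2 ribosomal RNAs (mt-Rnr1, the 12S rRNA, and mt-Rnr2, the 16S rRNA) and 22 transfer RNAs. All lie on chromosome M, 28 on the heavy strand and 9 on the light strand, the latter being mt-Nd6 and 8 tRNA genes. In the comparisons below, no mitochondrial gene passed the test with a 2-fold change, beside at most 2.75% of all genes. Of 15 tested in stably expanded over pre-malignant cells, 1 mRNA (mt-Cytb) was lower at a limma adjusted p under 0.05. Of all genes 7.95% passed there, and mt-Cytb no longer did on leaving out any 1 library other than stably expanded library 3. Hardly any reads were listed for 5 mRNAs in all 9 libraries.

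Mitochondrial DNA is transcribed from both strands into long precursors, from which the tRNAs are cut out between the other genes. The mRNAs encode core subunits of complexes I, III, IV and V of the respiratory chain, and the rRNAs and tRNAs serve the mitochondrial ribosome that translates them. All other respiratory chain subunits, and all proteins that copy, transcribe, process and translate mitochondrial DNA, are encoded in the nucleus. Acute myeloid leukemia (AML) cells are known for a strong reliance on mitochondrial respiration.

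The RNA came from H9M cells, a mouse AML model in which lineage-negative bone marrow of C57BL/6-Ly5.1 mice is transduced with a gammaretroviral vector for Meis1, Hoxa9 and puromycin resistance. All 9 libraries come from clones of these cells that carry color-code vectors. Single clones were pooled, transplanted with helper bone marrow into irradiated C57BL/6J mice, and recovered from thawed splenocytes by sorting for CD45.1, bright EGFRt, cKit, dim or no CD11b and the color code. The ages of the mice were not given in the sources used here. Pre-malignant cells (n = 3) were 3 clones of mouse 15, taken before overt leukemia: 43BC-D, 38BC-D as well as 33BC-D. De novo expanded cells (n = 3) were 38BC-D from mouse 13, 43BC-D from mouse 14 and 33BC-D from mouse 17, and stably expanded cells (n = 3) were 34BC-D from mice 13, 14 and 17. Since all pre-malignant libraries came from 1 mouse and all stably expanded libraries from 1 clone, stage and mouse, or group and clone, cannot be told apart. Library numbers 1 to 3 of a group name no clone or mouse. In bulk RNA, fewer mitochondria per cell and less RNA per mitochondrion cannot be told apart either.

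Libraries held between 10379739 and 15551196 reads on genes, with the lowest depth in stably expanded library 3. Kit, the receptor used in the sort, had 3652 ± 317 normalized counts in pre-malignant and 2965 ± 177 in stably expanded libraries (SD, n = 3 each). The 7 T cell markers summed to at most 4.45 CPM (reads per 1000000 reads on genes). De novo expanded library 3 stood apart by 20485 CPM of 7 myeloid progenitor markers, against 3339 and 4682 CPM in the other de novo expanded libraries. The 8 B cell markers summed to 226 to 273 CPM in pre-malignant libraries. They summed to 75.8 to 225 CPM among de novo expanded and 86.0 to 107 CPM among stably expanded libraries. In stably expanded over pre-malignant cells 5 of them were called lower, where 2.75% of all genes were called, and 1 had a higher mean. The 7 erythroid markers summed to 18.6 to 35.0 CPM in pre-malignant libraries and to 2.29 to 24.0 CPM in the leukemic ones. Macrophage markers (7 genes) ranged from 53.5 to 242 CPM and platelet markers (3 of 5 genes with reads) from 1.17 to 3.04 CPM over the 9 libraries. The part of these cells in the mitochondrial values was not tested.

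The nuclear genome carries copies of mitochondrial DNA, and a short read from a copied stretch matches both. In the NCBIM37 mouse genome, an earlier build than the GRCm38.p6 of the files, 6259 of 16262 windows of 38 bases (the read length) of chromosome M also occur in nuclear sequence. The longest match without gaps on chromosome 1 lies on its minus strand (chr1:24619589-24623023, NCBIM37). This stretch copies 3435 bases, from position 6394 within mt-Co1 to position 9828 within mt-Tr, the gene after mt-Nd3, with 1 base that differs. Past it, chromosome 1 also held all windows of mt-Nd4l and 62.6% of those of mt-Nd4. All 37 genes have the same chromosome M coordinates in the files and in the annotation of NCBIM37. The sequences shown next come from GENCODE's transcripts of that build. They show 2 cases: a gene without any window of its own, and the single base that differs in the 3435-base stretch of chromosome 1. For mt-Atp8, a subunit of the ATP synthase at positions 7766 to 7969, the capitals mark the 43 bases that the gene shares with mt-Atp6. For the first 40 bases of mt-Nd3, which starts at position 9459, the capital marks the base that differs from the copy (T9461C, with the base of chromosome M first, its position on chromosome M, then the base of the copy).
mt-Atp8: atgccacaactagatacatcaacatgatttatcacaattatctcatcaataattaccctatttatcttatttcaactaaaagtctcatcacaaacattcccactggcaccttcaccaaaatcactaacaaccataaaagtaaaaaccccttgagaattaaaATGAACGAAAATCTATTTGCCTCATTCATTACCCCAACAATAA
mt-Nd3: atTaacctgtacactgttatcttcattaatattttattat
All windows of the first sequence also occur in nuclear sequence, and 0 or 1 reads were listed for mt-Atp8 in 8 libraries and 4 reads in stably expanded library 3. In the second, the windows that cover the capital base are the ones that the copy lacks.

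The same pattern held for all 5 mRNA genes whose windows occur in full in nuclear sequence. Besides mt-Atp8, these are mt-Co2 and mt-Co3 (catalytic core of cytochrome c oxidase, complex IV), mt-Atp6 (ATP synthase, complex V) and mt-Nd4l (complex I). Their highest value in a library was 16 reads, for mt-Atp6 in stably expanded library 1, and together they held 0.0164% of all mitochondrial mRNA reads. In the order pre-malignant, de novo expanded and stably expanded libraries 1 to 3, mt-Co2 had 8, 3, 8, 3, 6, 6, 5, 8 and 1 reads. For mt-Co3 the reads were 3, 9, 6, 2, 4, 1, 4, 5 and 0. For mt-Atp6 they were 11, 5, 10, 3, 4, 13, 16, 9 and 7, and mt-Nd4l had between 0 and 2 reads in every library. The groups overlapped in each of these genes, none reached the mean of 10 normalized counts required for testing, and a count of 0 allows up to 3 reads. The other 8 mRNA genes had at least 123 reads in every library and none had all of its windows in nuclear sequence. Closest to the limit was mt-Nd3 with 99.0% of windows shared and 123 to 213 reads, while 62.6% of mt-Nd4 and 58.4% of mt-Co1 windows were shared. In mt-Nd5, mt-Nd2 and mt-Rnr2 the shares were 13.0%, 10.6% and 9.19%, they were 1.99% in mt-Cytb and 1.04% in mt-Nd6, and 0 in mt-Nd1 and mt-Rnr1.

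The annotated copies on chromosome 1 held more reads than the 5 low mRNAs. The 7 genes listed there (chr1:24611535-24616197, GRCm38.p6, minus strand) together had 228 to 322 reads per library, against 9 to 27 on the 5 mitochondrial mRNAs, and more in 9 of 9 libraries. These sets are unlike, since chromosome 1 also matches most of mt-Nd3 and parts of mt-Co1 and mt-Nd4. Which copy belongs to which mitochondrial gene was not tested. Among the 7 copies, Gm29216 had 91 to 139 reads, Gm10925 41 to 93 reads and Gm28437 30 to 60 reads. Gm13340 on chromosome 2 had 116 to 272 reads. Of the 10 listed copies, 8 were tested, and none passed the adjusted p in any comparison (limma). How the counting treated reads with several positions is not given in the sources used here.

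The level of each gene per length of gene, in CPM per kilobase, spanned more than 3 orders of magnitude. The plot of levels by gene shows each library beside the share of windows in nuclear sequence.

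**Figure D1:**
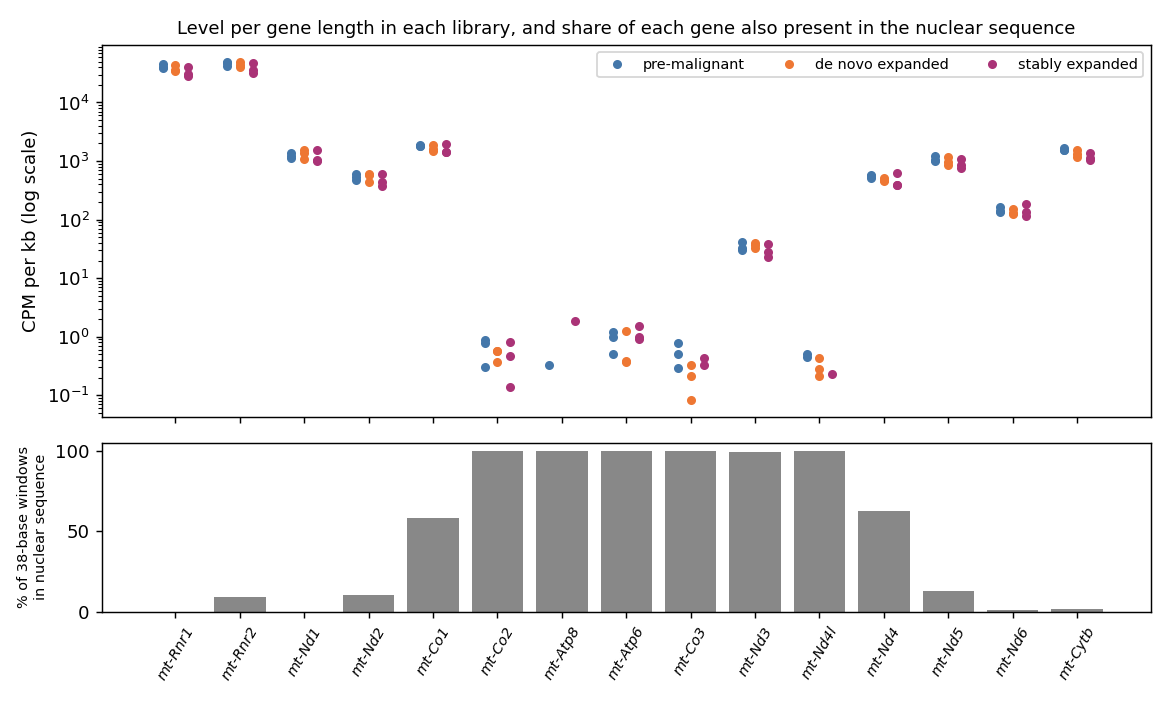
Upper panel: level of the 13 mRNA and 2 rRNA genes in CPM per kilobase on a log scale, in chromosome order, with 1 point per library coloured by group (libraries at 0 are not drawn). Lower panel: percentage of 38-base windows of each gene that also occur in nuclear sequence of NCBIM37. The 5 genes at 100% reach at most 1.89 CPM per kilobase, while the others sit at 23.1 or higher.

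The rRNAs were by far the most abundant mitochondrial transcripts and held 92.1 to 92.9% of mitochondrial reads, in libraries made with a kit that removes rRNA-derived cDNA. The level of mt-Rnr2 (positions 1094 to 2675) was 48059, 48969 and 41775 CPM per kilobase in pre-malignant libraries 1 to 3, 44533, 50036 and 40692 among de novo expanded and 32440, 35851 and 47203 among stably expanded libraries. For mt-Rnr1 (positions 70 to 1024) the levels were 46323, 38508 and 40129, then 35028, 44136 and 35301, then 28609, 31138 and 40027 CPM per kilobase. In both rRNAs stably expanded libraries 1 and 2 were the lowest of the 9, and library 3 lay within the range of the other groups. Reads on mt-Rnr2 per read on mt-Rnr1 ranged from 1.72 to 2.11.

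Among the 8 mRNA genes with windows unique to chromosome M, mt-Co1 (positions 5328 to 6872), the catalytic subunit of complex IV, had the highest level. It was 1819, 1853 and 1784 CPM per kilobase in pre-malignant, 1501, 1848 and 1591 among de novo expanded and 1446, 1426 and 1951 among stably expanded libraries. mt-Cytb (positions 14145 to 15288), the only mitochondrially encoded subunit of complex III, reached 1657, 1573 and 1562 CPM per kilobase in pre-malignant, 1175, 1520 and 1303 among de novo expanded and 1043, 1126 and 1355 among stably expanded libraries. All 3 pre-malignant values of mt-Cytb lay above all 6 leukemic values. mt-Co1 by contrast was highest in stably expanded library 3, and its groups overlapped.

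The complex I mRNAs, which encode membrane subunits of NADH dehydrogenase, covered a wide range. mt-Nd1 (positions 2751 to 3707) stood at 1224, 1353 and 1117 CPM per kilobase in pre-malignant, 1376, 1530 and 1095 among de novo expanded and 990, 1051 and 1571 among stably expanded libraries. For mt-Nd5 (positions 11742 to 13565) the levels were 1029, 1218 and 997, then 947, 1183 and 863, then 769, 870 and 1068 CPM per kilobase. Stably expanded libraries 1 and 2 were low and library 3 was not, in both genes. mt-Nd2 (positions 3914 to 4951) had 524, 608 and 472, then 567, 604 and 433, then 369, 442 and 592 CPM per kilobase. In mt-Nd4 (positions 10167 to 11544) the values were 558, 580 and 515, then 451, 519 and 466, then 385, 392 and 618 CPM per kilobase. In all 4 of these genes library 3 was the highest of the stably expanded libraries. mt-Nd6 (positions 13552 to 14070), the only mRNA gene of the light strand, had 140, 164 and 134, then 127, 153 and 123, then 115, 135 and 182 CPM per kilobase. mt-Nd3 (positions 9459 to 9806) was the lowest of the 8 with 32.3, 41.9 and 30.7, then 33.3, 37.5 and 39.2, then 23.1, 28.4 and 38.2 CPM per kilobase.

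Over the 9 libraries, the mean levels per kilobase followed the order mt-Rnr2 (43284 ± 6118 CPM per kilobase, SD, n = 9), mt-Rnr1 (37689 ± 5770), mt-Co1 (1691 ± 200), mt-Cytb (1368 ± 221), mt-Nd1 (1256 ± 211), mt-Nd5 (994 ± 149), mt-Nd2 (512 ± 86.7), mt-Nd4 (498 ± 81.1), mt-Nd6 (142 ± 21.4) and mt-Nd3 (33.8 ± 5.97). Neighbours kept this order in 9 of 9 libraries, except mt-Cytb over mt-Nd1 in 6 and mt-Nd2 over mt-Nd4 in 4, which did not differ beyond their spread. Per kilobase of windows that are unique to chromosome M, a scale chosen after seeing the data, mt-Nd4 was at 1367 ± 223 CPM, next to mt-Cytb at 1442 ± 233 and mt-Nd1 at 1307 ± 220, and mt-Co1 at 4160 ± 492 CPM (SD, n = 9). The position of mt-Nd4 and the distance of mt-Co1 from the rest thus depended on the scale. mt-Nd3, with only 3 such windows, was left out of this scale, so its last place holds per kilobase of gene only.

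The tRNAs, which are 59 to 75 bases long, held only 96 to 189 reads per library. A read was listed in at least 1 library for 15 of 22 tRNA genes and in all 9 libraries for 8. Of the 7 without any read, 5 had all of their windows in nuclear sequence and 1 (mt-Ts2, for serine) had none. In all, 9 tRNA genes had all of their windows there, and among these mt-Tw had 1 to 16 reads in every library. The 4 genes with the most reads, mt-Tl1 (leucine), mt-Tt (threonine), mt-Tp (proline) and mt-Tv (valine), carried 75% of the tRNA reads. mt-Tl1, which lies between mt-Rnr2 and mt-Nd1, had 59, 49 and 38 reads in pre-malignant, 38, 50 and 35 among de novo expanded and 29, 33 and 20 among stably expanded libraries. Stably expanded libraries were the 3 lowest for this tRNA. Reads on mt-Tt numbered 30, 69 and 51, then 30, 19 and 27, then 40, 18 and 26. The light-strand gene mt-Tp had 38, 17 and 41, then 30, 26 and 31, then 18, 34 and 11 reads, and mt-Tv had 15, 13 and 8, then 24, 20 and 13, then 12, 15 and 8 reads. In these 3 genes the groups overlapped. The other 11 tRNA genes with reads had at most 24 in a library.

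To ask whether the mitochondrial share of reads differed between stages, reads on the 37 genes were set against all reads on genes. Of the mitochondrial reads 92.1 to 92.9% were rRNA, left after the kit's removal of rRNA-derived cDNA, so that this is no share of the transcriptome. The share was 12.9%, 12.4% and 11.3% in pre-malignant libraries 1 to 3, 11.2%, 13.1% and 10.6% among de novo expanded and 8.54%, 9.36% and 12.2% among stably expanded libraries. Stably expanded libraries 1 and 2 were the lowest of all, and library 3 lay among the pre-malignant values. The means were 12.2% ± 0.829 (SD, n = 3), 11.6% ± 1.31 and 10.1% ± 1.95. The stably expanded mean was 17.7% below the pre-malignant one (exact two-sided permutation p = 0.2) and the de novo expanded mean 4.86% below it (exact p = 0.6). The stably expanded mean was 13.5% below the de novo expanded mean (exact p = 0.3), and the 6 leukemic libraries together, at 10.8% ± 1.72 (SD, n = 6), were 11.3% below the pre-malignant ones (exact p = 0.238). The groups overlapped in every comparison, and no difference passed the test. Exact tests of 3 against 3 libraries cannot go below p = 0.1 and those of 6 against 3 not below 0.0238. After Benjamini-Hochberg adjustment over the 48 comparisons of 12 such quantities every adjusted p of these exact tests was 0.505 or higher. Without stably expanded library 3, which moved the value more than any other, the stably expanded mean was 8.95%, or 26.7% below the pre-malignant mean (exact p = 0.2). The 95% Clopper-Pearson interval of a library's share was at most ± 0.0200 percentage points, a counting error that covers no other source of variation.

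**Figure D2:**
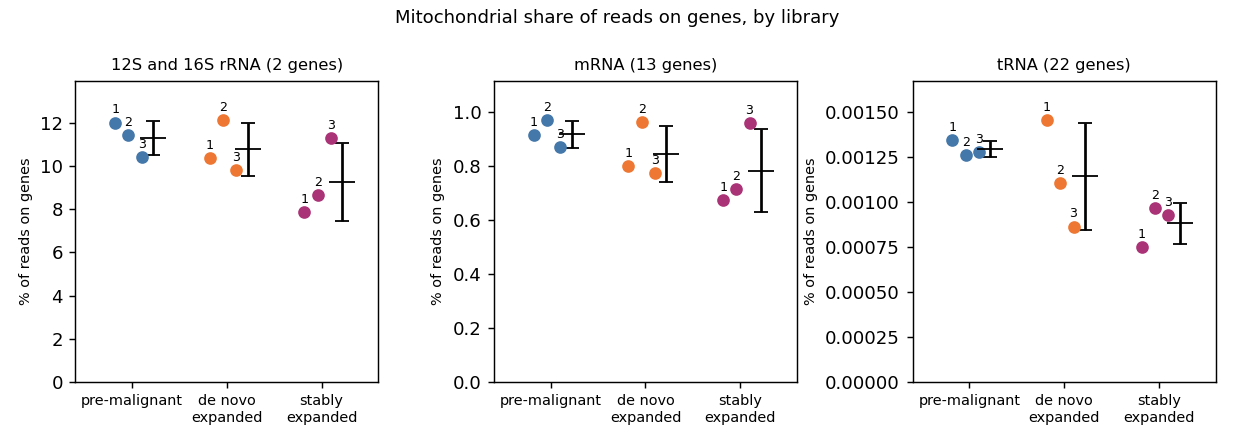
Percentage of reads on genes that fall on mitochondrial rRNA, mRNA and tRNA genes, with 1 numbered point per library and the mean ± SD of each group (n = 3) beside the points. Stably expanded libraries 1 and 2 were the lowest for rRNA and mRNA with library 3 near the other groups, and all 3 stably expanded libraries lay below the pre-malignant ones for tRNA.

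By RNA class, mRNA reads made up 0.919% ± 0.0499 of reads in pre-malignant, 0.846% ± 0.104 among de novo expanded and 0.784% ± 0.153 among stably expanded libraries (SD, n = 3 each), with overlapping groups. The rRNA share was 11.3% ± 0.800, 10.8% ± 1.21 and 9.27% ± 1.80, and also overlapped. The tRNA share was 0.00134%, 0.00126% and 0.00128% in pre-malignant, 0.00145%, 0.00111% and 0.000862% among de novo expanded and 0.000750%, 0.000966% and 0.000925% among stably expanded libraries. All 3 stably expanded libraries lay below all 3 pre-malignant libraries, with a mean 31.9% lower (exact p = 0.1, the smallest possible, adjusted p = 0.505). At 96 reads, the 95% Clopper-Pearson interval of stably expanded library 3 ran from 0.000749% to 0.00113% and reached into that of pre-malignant library 2 (0.00108% to 0.00146%).

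Gene by gene, the comparison of the stably expanded clone with pre-malignant cells asked how a clone that grew early in every mouse differed from clones before expansion. Of 15 mitochondrial genes with enough reads for the test, 14 had lower means in stably expanded cells, among them all 8 mRNAs and both rRNAs, and mt-Tv was 0.05 higher on the log2 scale. Their median log2 fold change was -0.28, beside 0.00 for all 13968 genes tested. None was called (adjusted p under 0.05 and at least 2-fold), where 2.75% of all genes were called. mt-Cytb had an adjusted p under 0.05, as did 7.95% of all genes at any fold. Its normalized counts were 26001, 24159 and 24127 in pre-malignant and 16339, 17115 and 21358 in stably expanded libraries, without overlap. On the log2 scale it fell by 0.45 (SE 0.11), a 1.36-fold decrease (limma, adjusted p = 0.0372). edgeR's quasi-likelihood test and DESeq2 on the recovered reads gave adjusted p values of 0.0423 and 0.00297. The call at the adjusted p was lost in 1 limma fit of all 9 libraries (adjusted p = 0.127) and on leaving out any 1 library other than stably expanded library 3 (limma adjusted p between 0.0771 and 0.126), with the fall between 0.37 and 0.57 over all 6 such fits.

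The other members did not pass. mt-Tl1 had 61.4, 45.0 and 34.7 normalized counts in pre-malignant and 25.9, 30.1 and 26.6 in stably expanded libraries, also without overlap (log2 fold change -0.72, SE 0.36, limma adjusted p = 0.237). Together with mt-Cytb, 2 of 15 tested members did not overlap between the groups, where 30.7% of all genes did not. mt-Rnr1 differed by -0.33 (SE 0.19, limma adjusted p = 0.315) and mt-Rnr2 by -0.28 (SE 0.22, limma adjusted p = 0.467). Among the remaining mRNAs the values ranged from -0.28 for mt-Nd4 to -0.04 for mt-Nd6. Without stably expanded library 3, mt-Nd4 reached -0.51 at a limma adjusted p of 0.0158, and mt-Cytb -0.57 at 0.0117.

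**Figure D3:**
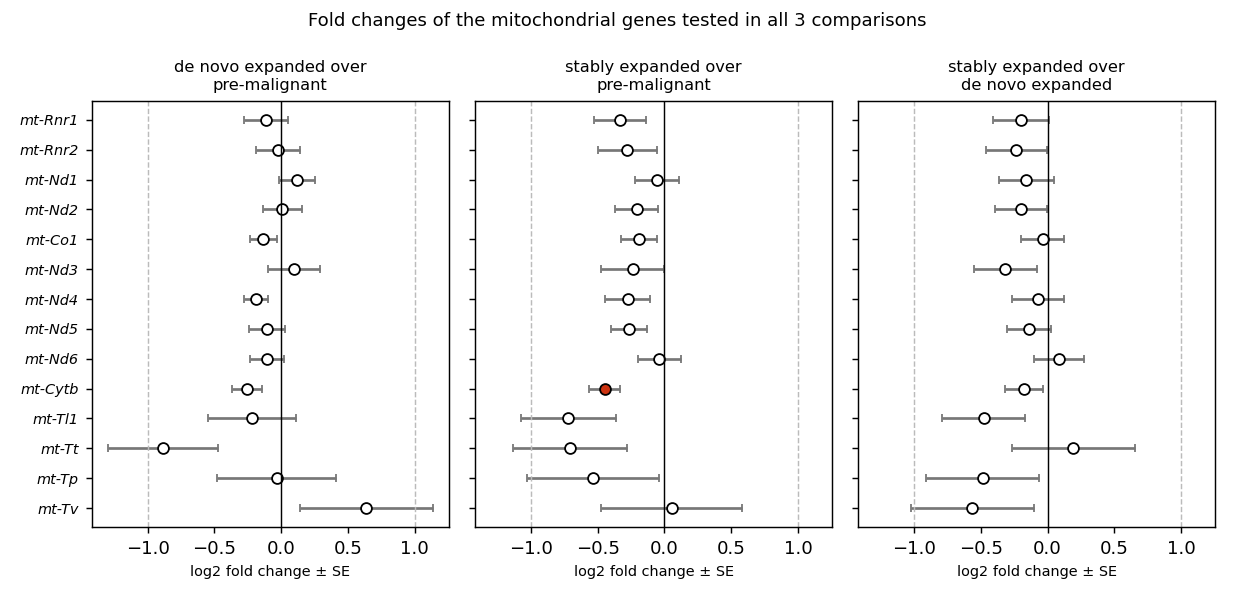
Log2 fold change ± SE from limma for the 14 mitochondrial genes tested in all 3 comparisons, with the groups named above each panel. The red point is mt-Cytb in the stably expanded over pre-malignant comparison, the only value at an adjusted p under 0.05, and every point lies inside the dashed 2-fold lines.

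Comparing de novo expanded with pre-malignant cells asked what changed when the same clones grew out. Here 16 members were tested, of which 5 had higher and 11 lower means, with a median log2 fold change of -0.11 beside 0.01 for all 14195 genes. None was called, and 0% of all genes were called by limma, while 62 were by DESeq2. At an unadjusted p under 0.05 there were 0 members and 1597 genes by limma, and 0 members by edgeR and DESeq2. mt-Cytb had 26700, 24885 and 24958 normalized counts in pre-malignant and 18877, 24333 and 21362 in de novo expanded libraries, the 1 member without overlap, where 19.1% of all genes did not overlap. Its log2 fold change was -0.25 (SE 0.11, limma adjusted p = 0.455). The highest value was that of mt-Tv at 0.64 (SE 0.50) and the lowest that of the glutamine tRNA mt-Tq at -0.99 (SE 0.92), both with fewer than 30 normalized counts in every library. Among mRNAs, mt-Nd1 was at 0.12 (SE 0.14) and mt-Nd4 at -0.19 (SE 0.09).

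Between the leukemic groups, 14 members were tested, 2 with higher and 12 with lower means in stably expanded cells (median log2 fold change -0.19, beside 0.00 for all 13758 genes). None was called, as against 0.00727% of all genes (1 gene), and 0 members had an unadjusted p under 0.05 by limma, edgeR or DESeq2. Values ranged from -0.56 for mt-Tv to 0.19 for mt-Tt, and mt-Cytb differed by -0.18 (SE 0.15, limma adjusted p = 0.897). mt-Tl1, at 42.6, 43.2 and 31.3 normalized counts in de novo and 26, 30 and 26.5 in stably expanded libraries, was the 1 member without overlap, where 9.61% of all genes did not overlap. The comparisons share their control libraries, so that the low mt-Cytb values in both comparisons with pre-malignant cells rest on the same 3 libraries.

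The composition of the mitochondrial mRNA reads does not depend on how libraries are scaled to each other. Complex I genes held 47.8 to 54.2% of these reads, complex IV genes 29.0 to 33.1%, complex III (mt-Cytb) 16.2 to 20.7% and complex V genes at most 0.0154%. These are shares of reads as counted, not of the mRNAs in the cells. Both complex V genes, mt-Co2, mt-Co3 and mt-Nd4l have all windows in nuclear sequence and had at most 16 reads in a library. The complex IV share is thus almost wholly that of mt-Co1, and the complex V share gives no level of these mRNAs. mt-Cytb made up 20.7%, 18.5% and 20.5% in pre-malignant, 16.8%, 18% and 19.3% among de novo expanded and 17.6%, 18% and 16.2% among stably expanded libraries. The stably expanded libraries did not overlap with the pre-malignant ones, and 5 of 6 leukemic libraries were below the lowest pre-malignant one. The mean was 13.3% lower in stably expanded (exact p = 0.1) and 11.4% lower in all leukemic than in pre-malignant libraries (exact p = 0.0476, adjusted p = 0.505). With single libraries left out, the latter exact p lay between 0.0357 and 0.143, and was under 0.05 only without de novo expanded library 3.

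mt-Nd6, from the light strand, differed in the other direction as a share of mitochondrial mRNA reads. As a level it was at a log2 fold change of -0.04 in stably expanded over pre-malignant cells (limma adjusted p = 0.910). Over de novo expanded cells it was at 0.08 (limma adjusted p = 0.961). It held 0.792%, 0.876% and 0.801% of mitochondrial mRNA reads in pre-malignant, 0.827%, 0.824% and 0.824% among de novo expanded and 0.881%, 0.976% and 0.988% among stably expanded libraries. The stably expanded libraries lay above all others, if narrowly above pre-malignant library 2. Their mean was 15.2% above the pre-malignant and 15.0% above the de novo expanded mean (exact p = 0.1 each, the smallest possible, adjusted p = 0.505). The 95% Clopper-Pearson intervals were at most ± 0.0619 percentage points for mt-Nd6, wider than the distance between these 2 libraries, and ± 0.237 percentage points for mt-Cytb. mt-Nd6 shares 14 bases with mt-Nd5 on the other strand, and whether reads were counted by strand is not given in the sources used here.

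**Figure D4:**
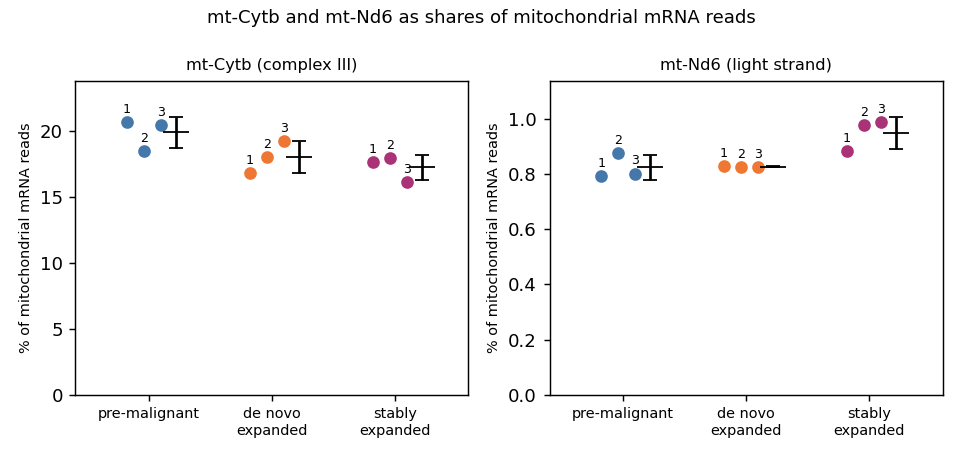
mt-Cytb and mt-Nd6 reads as percentages of the reads on all 13 mitochondrial mRNA genes, with 1 numbered point per library and the mean ± SD of each group (n = 3). Stably expanded libraries lay below the pre-malignant ones for mt-Cytb and above all other libraries for mt-Nd6.

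The proportion of rRNA to mRNA reads varied little and that of tRNA to mRNA reads more. There were 1177 to 1314 rRNA reads per 100 mitochondrial mRNA reads in pre-malignant, 1257 to 1300 among de novo expanded and 1163 to 1207 among stably expanded libraries. The stably expanded mean was 7.23% below the de novo expanded mean, without overlap (1182 ± 22 against 1274 ± 22.2, SD, n = 3 each, exact p = 0.1, adjusted p = 0.505), and 3.84% below the pre-malignant mean with overlap. Per 100 mRNA reads there were 0.141 ± 0.00974 tRNA reads in pre-malignant, 0.136 ± 0.0397 among de novo expanded and 0.114 ± 0.0194 among stably expanded libraries (SD, n = 3 each). These overlapped in all comparisons.

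The nuclear partners of the mitochondrial mRNAs mostly had higher means in both leukemic groups than in pre-malignant cells. Of mitochondrial mRNAs, 8 of 8 had lower means in stably expanded and 5 of 8 in de novo expanded cells. In both comparisons mt-Cytb was the only mRNA without overlap. In stably expanded library 3, mt-Nd1, mt-Co1, mt-Nd4 and mt-Nd6 lay above all pre-malignant libraries. mt-Nd1 and mt-Nd6 changed sign in stably expanded over pre-malignant cells when single libraries were left out. Of 75 nuclear subunit genes of complexes I to V, all of them tested, 70 had higher means in stably expanded than in pre-malignant cells (median log2 fold change 0.22), and 72 in de novo expanded cells than in pre-malignant ones (0.24). Between the leukemic groups 38 were higher and 37 lower (0.00). None was called in any comparison (limma), and 7 passed the adjusted p at any fold in the comparison of stably expanded with pre-malignant cells, all higher. Of all genes 7.95% passed it. At an unadjusted p under 0.05 there were 25 of 75 in this comparison, 22 in that of de novo expanded with pre-malignant cells and 0 between the leukemic groups, beside 25.4%, 11.3% and 4.83% of all genes. The count of 7 became 2 without pre-malignant library 1 or 2, 4 without stably expanded library 1 and 1 in the fit of all 9 libraries, while DESeq2 gave 12.

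The highest values in stably expanded over pre-malignant cells all passed the adjusted p, except in complex II. They were those of Ndufv3 (complex I, log2 fold change 0.83, SE 0.14, limma adjusted p = 0.00882), Uqcrb (complex III, 0.79, SE 0.17, 0.0214), Cox6c (complex IV, 0.70, SE 0.10, 0.00455), Atp5j (complex V, 0.51, SE 0.13, 0.0345) and Sdhd (complex II, 0.34, SE 0.19, 0.297). The lowest were Ndufs3 at -0.22, Sdhb at -0.07, Uqcrq at 0.03, Cox7c at -0.07 and Atp5g2 at 0.03. De novo over pre-malignant values ran from Ndufs6 at -0.17 to Ndufb6 at 0.64 in complex I, from Sdhb at 0.11 to Sdhd at 0.42 in complex II and from Uqcrq at 0.13 to Uqcrb at 0.62 in complex III. In complex IV they ran from Cox7c at 0.03 to Cox6c at 0.61, and in complex V from Atp5g2 at 0.06 to Atp5g1 at 0.45. None of these passed the test (smallest limma adjusted p = 0.320, for Cox6c). The 7 and 0 that passed, beside 7.95% and 0% of all genes, do not show that the groups differ in this respect. Unequal counts that pass are no test of a difference, and both comparisons share the pre-malignant libraries. Compared directly, 38 were higher and 37 lower in stably than in de novo expanded cells, with 0 at an unadjusted p under 0.05 (limma). In complex III, mt-Cytb was at -0.45 in stably expanded over pre-malignant cells and all 9 nuclear subunits between 0.03 and 0.79.

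Summed over the 75 genes, nuclear subunits reached 3771, 4062 and 4480 CPM in pre-malignant, 5070, 4615 and 4923 CPM among de novo expanded and 4944, 5194 and 4561 CPM among stably expanded libraries. All 6 leukemic values lay above the pre-malignant ones. The 13 mitochondrial mRNAs summed to 9154, 9709 and 8713 CPM in pre-malignant, 7995, 9651 and 7741 among de novo expanded and 6760, 7165 and 9590 among stably expanded libraries. Reads on mitochondrial mRNAs per read on nuclear subunits, a ratio chosen after seeing the data, were therefore 2.43, 2.39 and 1.94 in pre-malignant, 1.58, 2.09 and 1.57 among de novo expanded and 1.37, 1.38 and 2.10 among stably expanded libraries. Of the leukemic libraries 4 lay below the pre-malignant range, and de novo expanded library 2 and stably expanded library 3 within it. The leukemic mean of 1.68 ± 0.334 (SD, n = 6) was 25.4% below the pre-malignant mean of 2.25 ± 0.269 (SD, n = 3), a difference that did not pass the test (exact p = 0.0714, adjusted p = 0.505) and ranged from 22.4 to 30.2% when single libraries were left out.

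**Figure D5:**
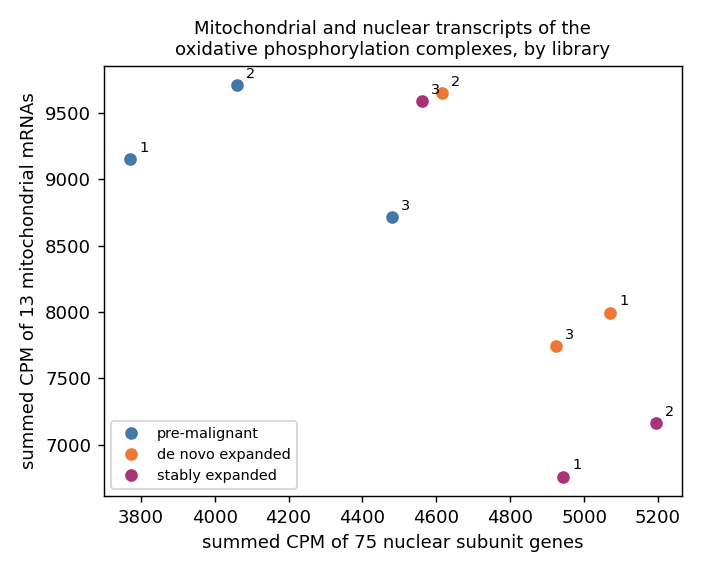
Summed CPM of the 13 mitochondrial mRNAs (vertical axis) against that of 75 nuclear genes for subunits of complexes I to V (horizontal axis), with 1 numbered point per library coloured by group and neither axis starting at 0. The pre-malignant libraries sit left of all leukemic ones, and 4 leukemic libraries sit lower than every pre-malignant library.

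Nuclear genes for the upkeep and expression of mitochondrial DNA leaned to higher means in 1 of the 3 comparisons. For de novo expanded over pre-malignant cells, 49 of 70 tested were higher and 21 lower (median log2 fold change 0.11). Of all genes 49.0% were lower there. The split was 41 higher and 30 lower for stably expanded over pre-malignant cells, where 49.5% of all genes were lower. For stably over de novo expanded cells it was 31 higher and 39 lower, beside 50.4% of all genes lower. None of the 72 genes in 6 lists was called or passed the adjusted p in any comparison by limma, while 3 passed it by DESeq2 in stably expanded over pre-malignant cells. At an unadjusted p under 0.05 limma gave 9 of 71 tested in that comparison, 7 of 70 for de novo expanded over pre-malignant and 2 of 70 for stably over de novo expanded cells, where all genes gave 25.4%, 11.3% and 4.83%. Against pre-malignant cells, 6 of 10 mitochondrial transcription genes had higher means in stably expanded cells (median log2 fold change 0.06), from Tefm, the elongation factor, at 0.83 (SE 0.41) to Polrmt, the mitochondrial RNA polymerase, at -0.38 (SE 0.12, limma adjusted p = 0.0805). In the replication and nucleoid list 5 of 11 were higher (median -0.03), with Slc25a33 at 0.54 (SE 0.39) and Polg2, the accessory subunit of the DNA polymerase, at -0.80 (SE 0.26, limma adjusted p = 0.0807). Of 20 genes for processing and decay of mitochondrial RNA 14 were higher (median 0.14), from Rexo2, an oligoribonuclease, at 0.43 (SE 0.12, limma adjusted p = 0.0546) to 1110008L16Rik at -0.34 (SE 0.23). Of 12 tRNA modification genes 4 were higher (median -0.07, from Cdk5rap1 at 0.43 to Trmu at -0.44), of 11 translation factors 8 (median 0.19, from Mtrf1 at 0.38 to Mtfmt at -0.38) and of 7 tested regulators of mitochondrial biogenesis 4 (median 0.03, from Gabpa at 0.29 to Ppargc1b at -0.38).

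In de novo expanded against pre-malignant cells, the same lists had 6 of 9, 8 of 11, 17 of 20, 5 of 12, 7 of 11 and 6 of 7 tested genes with higher means, at medians of 0.09, 0.12, 0.19, -0.06, 0.14 and 0.12. By list, their values ran from Polrmt at -0.28 to Mterf1a, a termination factor, at 0.47 for transcription, from Polg2 at -0.61 to Slc25a33 at 0.46 for replication, and from Fastkd2 at -0.14 to Rexo2 at 0.44 for processing and decay. For tRNA modification they ran from Trmt61b at -0.31 to Nsun2, an RNA methyltransferase, at 0.47, for translation from Mtfmt, which formylates the initiator tRNA, at -0.28 to Taco1 at 0.58, and for biogenesis from Nrf1 at -0.21 to Esrra at 0.46, both transcription factors. Polrmt, Polg2, Slc25a33, Rexo2 and Mtfmt thus lay at the same end of their lists in both comparisons, which share the pre-malignant libraries.

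Between stably and de novo expanded cells the medians of the 6 lists lay between -0.07 and 0.08. The lists ran from Tfb1m at -0.37 to Tefm at 0.40, from Twnk, the mitochondrial helicase, at -0.47 to Tk2 at 0.20, from Fastkd1 at -0.52 to Fastkd2 at 0.18, from Qtrt1 at -0.43 to Cdk5rap1 at 0.34, from Taco1 at -0.38 to Mtrf1 at 0.26 and from Ppargc1b at -0.46 to Gabpa at 0.13.

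Of 3 transcripts known to stay in the nucleus, 1 passed the adjusted p (limma), in stably expanded over pre-malignant cells only. Malat1, Neat1 and Kcnq1ot1 summed to 7131 to 10017 CPM in pre-malignant, 4961 to 7837 CPM among de novo expanded and 4873 to 8339 CPM among stably expanded libraries, with overlapping groups. Neat1 was lower in stably expanded than in pre-malignant cells (log2 fold change -0.998, SE 0.25, limma adjusted p = 0.0369), where 7.95% of all genes passed. Malat1 and Kcnq1ot1 (-0.45, SE 0.14, limma adjusted p = 0.0673) did not pass there. The part of these transcripts in the mitochondrial shares was not tested.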

How the data were processed

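RNA-Seq libraries of sorted mouse splenocytes were compared, 3 in each of 3 groups. Per the labels and the study's methods, the authors made libraries from 38-base reads with a total RNA kit that removes rRNA-derived cDNA, trimmed reads (Trim Galore 0.6.4), aligned them to GRCm38.p6 (STAR 2.6.1d) and counted genes (featureCounts 1.6.4). The deposited signal values are the authors' read counts divided by DESeq2 size factors, in 3 pairwise tables, and were multiplied back to whole reads (at least 99.9956% of values within 0.05 reads of a whole number). The deposited log2 fold changes, standard errors, test statistics and p-values of the authors' own comparisons were not used. Columns carry library numbers, which the sample descriptions tie to a group through the pair of tables they share but not to a clone or mouse, so that libraries were numbered in column order. P-values measure the spread between these samples. That is between clones of 1 mouse (pre-malignant), clones each in another mouse (de novo expanded) or mice that hold 1 clone (stably expanded). No clone and mouse pair was repeated, so technical spread is included and cannot be told apart. One modification shared by all libraries and its gene are not reported here. The members and lists were chosen with earlier results of these data known.

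Normalized counts were tested per table with limma 3.58.1 (R 4.3.3) on log2(value + 1), with a mean of at least 10 over 6 libraries and Benjamini-Hochberg adjustment over all genes, and fold changes are on that scale. Calls required an adjusted p under 0.05 and a 2-fold change. The fit was tested on simulated data. Shares and ratios of reads were compared by exact two-sided permutation tests over libraries (scipy 1.17.1). The text names all mRNA and rRNA genes, tRNA genes with a mean of at least 10 normalized counts in every table, and of each nuclear list the called genes or else its highest and lowest member, and gives marker lists as counts and sums. Chromosome 1 copies and the lowest of the low genes were named after their values were seen. Copies of 38-base windows were counted in NCBIM37, whose mitochondrial gene coordinates are those of the files. Intervals and floors cover counting error only. Depth ran from 10379739 to 15551196 reads on genes, and a floor of 3 reads is 0.193 to 0.289 CPM.

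Alternatives were edgeR 4.0.16 and DESeq2 1.42.0 on whole reads, other pseudocounts, filters and scalings, 1 fit of all libraries, and leaving out each library.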

Additional observations from a re-analysis of the deposited data

How the results depend on the processing

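No paired analysis was possible because the columns carry library numbers that the labels tie to a group but not to a clone or a mouse. No mitochondrial gene was called in any setting, and the median of the mitochondrial mRNAs kept its sign in all of them. The number of all genes called moved most, from 0 for de novo expanded over pre-malignant cells to 5 with no filter, 62 with DESeq2 and 5 in 1 fit of all libraries, from 384 to 9 in that fit for stably expanded over pre-malignant cells, and from 1 to 2, 32 and 2 for stably over de novo expanded cells. With single libraries left out these counts ranged from 0 to 215, from 205 to 458 and from 0 to 511, with 215 and 511 both reached without de novo expanded library 3. mt-Cytb in stably expanded over pre-malignant cells lost its adjusted p under 0.05 as given above, and mt-Nd4 gained one without stably expanded library 3. Without a filter, mt-Rnr1 also passed in that comparison (limma adjusted p = 0.0176).

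Values near 0 changed sign, and for all of them the cause was not tested. For de novo expanded over pre-malignant cells, the share of mt-Nd6 was -0.604% per kilobase, and the log2 fold change of mt-Nd1 was -0.0790 and of mt-Tp 0.0774 with quantile normalization. That of mt-Nd2 was -0.0300 with quantile normalization, -0.0191 with centring on the median, -0.000892 with edgeR and -0.00979 in 1 fit of all libraries. For stably expanded over pre-malignant cells mt-Tv was at -0.0001197 with DESeq2.

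With single libraries left out, differences also changed sign. In percent, they ranged for complex I, stably over de novo expanded, from -4.34 to 0.572, for complex IV from -4.31 to 0.173 (de novo expanded over pre-malignant) and -0.787 to 2.77 (leukemic over pre-malignant), for complex V from -2.03 to 43.4 (leukemic over pre-malignant) and for mt-Nd6 from -1.59 to 3.56 (de novo expanded over pre-malignant). For tRNA per mRNA reads they ranged from -19.9 to 5.04 (de novo expanded over pre-malignant) and -23.7 to 0.984 (stably over de novo expanded), for rRNA per mRNA reads from -2.20 to 3.45 (leukemic over pre-malignant) and for mitochondrial mRNA per nuclear subunit reads from -21.4 to 2.66 (stably over de novo expanded). On the log2 scale, de novo expanded over pre-malignant values ranged for mt-Nd2 from -0.0784 to 0.14, mt-Rnr2 from -0.0939 to 0.0385 and mt-Tp from -0.45 to 0.19. Stably expanded over pre-malignant values ranged for mt-Nd1 from -0.27 to 0.0641, mt-Nd6 from -0.23 to 0.11 and mt-Tv from -0.22 to 0.28. Stably over de novo expanded values ranged for mt-Co1 from -0.19 to 0.0567, mt-Nd4 from -0.30 to 0.0517, mt-Nd6 from -0.11 to 0.23 and mt-Tt from -0.0601 to 0.54. No other share or ratio changed sign, rRNA left out of the total included. The authors' normalized counts gave no value for all leukemic libraries, since the 3 tables were normalized separately. Depth limits the precision of the tRNA counts.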
